A study of Mus musculus with 11 samples.

Results

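The genes described here control whether a T cell lives or dies: Bcl2, Bcl2l1, Mcl1, Bcl2l11, Bax and Bak1 of the BCL2 family, and the death receptor Fas. All probe sets listed under these 7 symbols in the deposited array table were taken, whatever their values. Probe sets were found for 6 of the 7 genes. They came to 17 probe sets of 45037 tested on the whole array. Bax had none under its symbol in the annotation used, so no value is given for it. The probe sets were 2 for Bcl2, 4 for Bcl2l1, 3 for Mcl1, 5 for Bcl2l11, 2 for Bak1 and 1 for Fas.

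The study profiled T cells of male NOD mice aged 16 weeks. This strain spontaneously develops lymphocytic infiltrates in its tear glands and is used to model Sjögren's syndrome. Effector regulatory (LG_eTreg), effector conventional (LG_eTconv) and naive (LG_naive) CD4 T cells were sorted from the glands, with 3 arrays each. Unfractionated splenic CD8 (Spl_CD8) and CD4 (Spl_CD4) T cells of these mice had 1 array each. All gland cells were live, CD4+ and TCRβ+. The effector cells were sorted as PD-1 high, ICOS high, CD73 low and CD200 low, and the naive cells as PD-1 negative and ICOS negative. The submitters wrote the same gate for both effector subsets, so the written gate does not separate them. No gene was altered and no treatment was given in any group. Whether each replicate was its own mouse or a pool is not stated, so the p-values reflect only how far these particular samples spread, which may be technical.

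BCL2, BCL-XL (the product of Bcl2l1) and MCL1 are survival proteins that hold the mitochondrial outer membrane closed. BIM, the product of Bcl2l11, is a BH3-only protein that binds and neutralizes them, which frees BAX and BAK (encoded by Bax and Bak1) to open pores and start caspase activation. FAS receives the death signal of FAS ligand at the cell surface and starts caspase activation from there. In T cells, interleukin 2 and STAT5 signalling are known to sustain Bcl2 and Bcl2l1, NF-κB is known to induce Bcl2l1, and FOXO factors are known to drive Bcl2l11.

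The promoters of Bcl2 and Bcl2l11 are shown because these genes had the largest called differences among the survival genes in LG_eTreg and LG_eTconv. The second promoter window of Bcl2l1 is shown because that gene was higher in both effector subsets and only this one of its 3 windows held a match to a motif searched. The sequences are RefSeq windows on mouse build GRCm38.p6, 300 bases long, running 5′ to 3′ on the gene's strand across a transcript start. Capitals mark matches on either strand to 3 short motifs: STAT (TTCNNNGAA), FOXO (TGTTTAC) and NF-κB (GGG, any 5 bases, then CC).
Bcl2, chr1:106714241-106714540, minus strand: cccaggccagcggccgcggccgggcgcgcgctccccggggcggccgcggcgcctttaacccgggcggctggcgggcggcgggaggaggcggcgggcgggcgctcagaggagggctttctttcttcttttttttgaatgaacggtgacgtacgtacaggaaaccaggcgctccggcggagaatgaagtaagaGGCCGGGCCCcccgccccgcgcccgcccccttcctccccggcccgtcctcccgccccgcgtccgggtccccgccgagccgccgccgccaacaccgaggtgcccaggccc
Bcl2l11, first window, chr2:128125788-128126087, plus strand: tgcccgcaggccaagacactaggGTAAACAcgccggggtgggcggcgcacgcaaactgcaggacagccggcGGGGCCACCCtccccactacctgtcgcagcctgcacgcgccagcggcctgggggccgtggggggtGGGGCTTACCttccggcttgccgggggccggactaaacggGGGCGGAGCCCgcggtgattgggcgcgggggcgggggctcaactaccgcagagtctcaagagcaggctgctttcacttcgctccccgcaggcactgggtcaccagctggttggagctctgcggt
Bcl2l1, second window, chr2:152830668-152830967, minus strand: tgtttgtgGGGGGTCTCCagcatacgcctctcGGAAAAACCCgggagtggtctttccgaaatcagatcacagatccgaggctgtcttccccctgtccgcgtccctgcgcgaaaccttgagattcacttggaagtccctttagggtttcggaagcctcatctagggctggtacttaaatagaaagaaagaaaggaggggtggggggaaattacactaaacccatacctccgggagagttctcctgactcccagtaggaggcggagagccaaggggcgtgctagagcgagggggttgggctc
The first Bcl2l11 window held the only FOXO match among the 10 windows of the 7 genes, GTAAACA, the motif read on the other strand, beginning 24 bases into the window. Its other capitals are NF-κB matches, of which the pair at bases 177 and 178 overlap. The Bcl2 window held 1 NF-κB match and the Bcl2l1 window 2, and neither held the other motifs. The only STAT match, TTCTGGGAA, lay in the Fas window (chr19:34290409-34290708, plus strand). Of all 32851 promoter windows, 3.65% held the FOXO motif, 8.3% the STAT motif and 50.8% the NF-κB motif, so an NF-κB match is common by its letters alone. A match describes these letters and is not evidence of binding.

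Values are log2 signals, so a difference of 1 is 2-fold. A marker or pathway gene is called measured below if it had a probe set under its symbol, whatever its signal. A probe set was taken as above background on an array where it exceeded the highest of that array's nonspecific control probe sets, a limit between 0.945 and 1.70. Of the 17 probe sets, 13 lay above this background as a mean of at least 1 gland group, against 24876 of all 45037. The other 4 (2 of Bcl2l1, 1 of Bcl2l11 and 1 of Bak1) were below the limit on all 11 arrays and give no information on their transcripts. On every array 45.5% to 56.3% of probe sets were above the limit. Correlations between arrays, over the 24876 probe sets, were 0.956 to 0.980 within gland groups and 0.887 to 0.950 between them. LG_eTreg 3, LG_eTconv 1 and LG_naive 1 stood apart in the 18S or actin control probes. The mean of the 18S ribosomal controls was 6.69 on LG_eTreg 3 and reached 6.63 on LG_naive 1, with the remaining arrays at 4.34 to 5.68. On LG_eTconv 1 the 3′ actin probe set exceeded the 5′ one by 3.35, with the remaining arrays at 1.53 to 2.86. The same measure for Gapdh did not set that array apart, at 3.24 with the remaining arrays at 1.99 to 3.52. T cell markers were above background in all groups, and Foxp3, which defines regulatory T cells, averaged 8.18 ± 0.05 in LG_eTreg, 4.24 ± 0.62 in LG_eTconv and 3.95 ± 1.04 in LG_naive (SD, n = 3 each). The rest of the regulatory T cell list set the effector subsets apart less. In the same order Il2ra averaged 7.15, 5.12 and 4.58, Ikzf2 9.28, 8.26 and 5.56, and Ctla4 10.26, 9.97 and 8.31. Ikzf2 and Ctla4 were not called between LG_eTreg and LG_eTconv (limma adjusted p = 0.133 and 0.316). The number of arrays limits the precision of each value. In bulk samples fewer cells expressing a gene and less RNA per cell cannot be told apart.

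Each probe set was tested with limma over the 9 gland arrays, with p-values adjusted by Benjamini-Hochberg over all 45037 probe sets, and called at an adjusted p under 0.05. In LG_eTreg against LG_naive, 4 of the 17 probe sets were called, 1 higher and 3 lower, where 7.6% of all probe sets were called, 4.09% higher and 3.51% lower. In LG_eTconv against LG_naive, 5 of the 17 were called, 1 higher and 4 lower, where 9.11% of all probe sets were called, 4.55% higher and 4.57% lower. In LG_eTreg against LG_eTconv, 3 were called, 1 higher and 2 lower, where 3.46% of all were called, 1.75% higher and 1.71% lower. The median difference over the 17 was -0.14 in LG_eTreg minus LG_naive (-0.01 over all probe sets), -0.11 in LG_eTconv minus LG_naive (-0.02) and 0.23 in LG_eTreg minus LG_eTconv (0.01). The groups did not overlap for 7, 9 and 8 of the 17 probe sets in the same order of comparisons, where 23.3%, 26.4% and 18.9% of all probe sets did not overlap. Both comparisons with LG_naive use the same 3 LG_naive arrays, so their values are given side by side and their likeness is not read as a result.

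**Figure D1:**
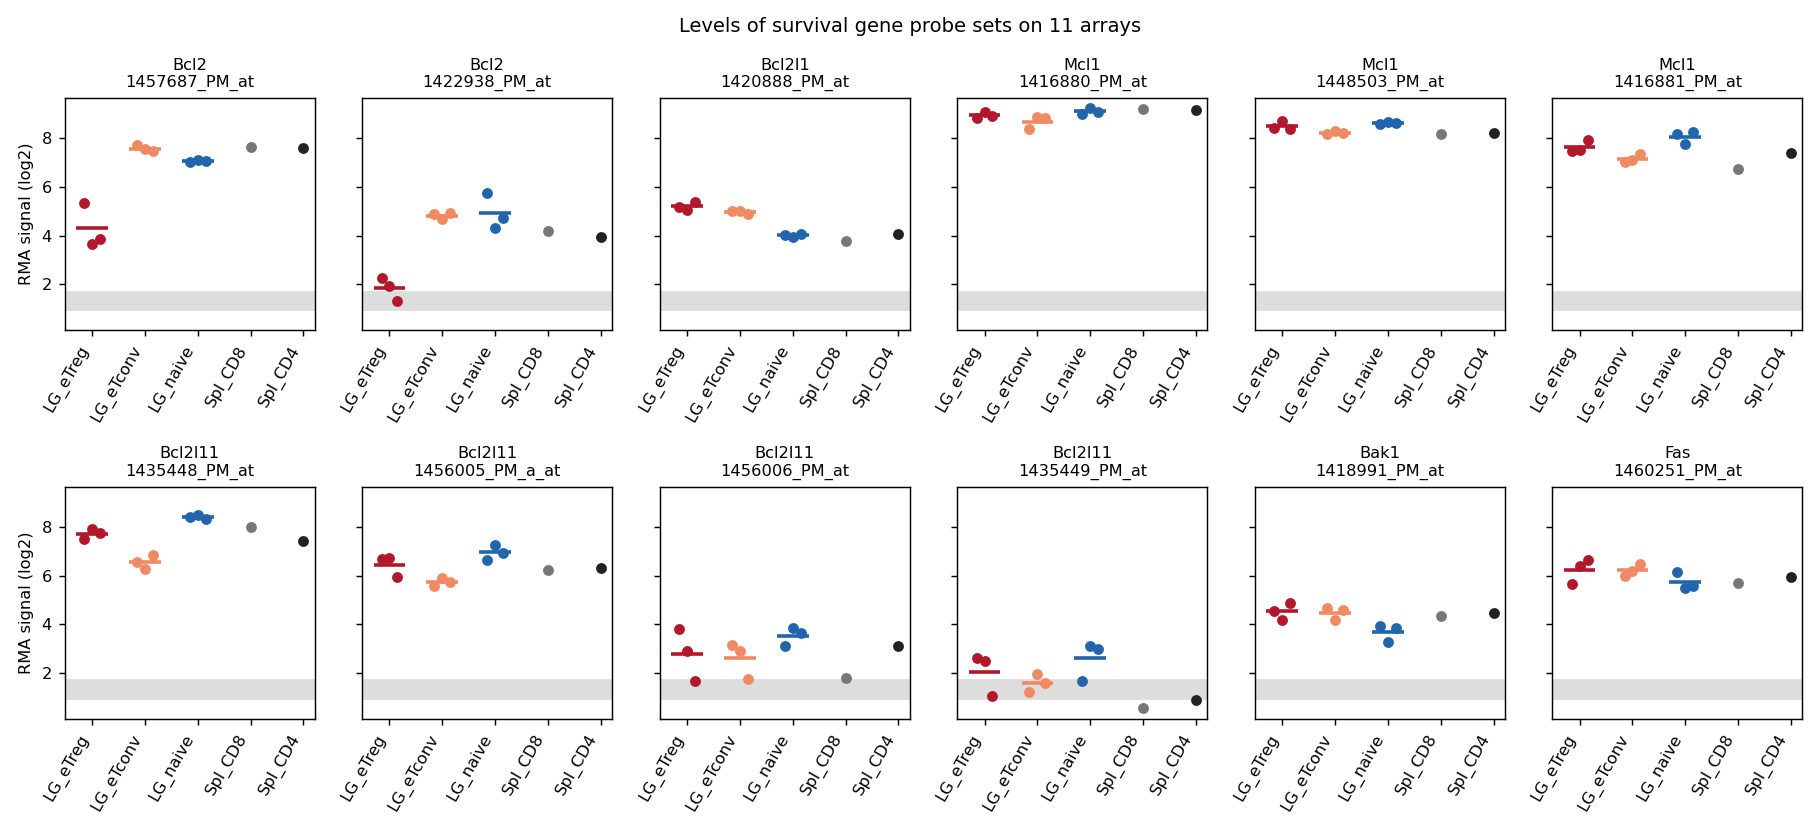
Log2 RMA signal (vertical axis) of the 12 survival gene probe sets with a mean above 2 in LG_eTreg or LG_naive, on each of the 11 arrays, by group. Points are arrays, bars are group means over 3 arrays, and the grey band spans the background limits of the arrays, 0.945 to 1.70. Both Bcl2 probe sets lie lower on all 3 LG_eTreg arrays than on any other array, and Bcl2l1 1420888_PM_at lies higher on all 6 effector arrays than on the LG_naive and spleen arrays.

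Bcl2, the survival gene best known for keeping resting T cells alive, was lower in the gland's effector regulatory cells than in every other population measured. On the first probe set (1457687_PM_at) the 3 LG_eTreg arrays had 5.34, 3.67 and 3.88, the LG_eTconv arrays 7.70, 7.53 and 7.45, and the LG_naive arrays 7.02, 7.11 and 7.05. All LG_eTreg arrays lay below all others, and LG_eTreg 1 was the highest of the 3. The difference from LG_naive was -2.76 (SE 0.38, 95% interval -3.64 to -1.89, 6.80-fold lower, limma adjusted p = 0.00322). Against LG_eTconv it was -3.27 (interval -4.14 to -2.39, 9.64-fold lower, adjusted p = 0.00285), which ranked 89 among the most negative differences of the 45037 probe sets. Without LG_eTreg 1, the differences were -3.29 from LG_naive and -3.79 from LG_eTconv.

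The second Bcl2 probe set (1422938_PM_at) gave differences of like size from separate probes. It had 2.25, 1.93 and 1.33 in LG_eTreg, where 2 of 3 arrays exceeded their limit, against 4.87, 4.66 and 4.91 in LG_eTconv and 5.74, 4.31 and 4.71 in LG_naive. Again no LG_eTreg array reached any of the others. The difference was -3.08 from LG_naive (SE 0.37, interval -3.92 to -2.24, adjusted p = 0.00145) and -2.98 from LG_eTconv (interval -3.82 to -2.14, adjusted p = 0.00372), and it was called under all 18 alternatives in which it was tested. The first probe set lost both calls only when the 3 arrays that stand apart were left out together, at -2.58 from LG_naive (adjusted p = 0.0603) and -2.99 from LG_eTconv (adjusted p = 0.0727). Over the 11 arrays the 2 probe sets had a Pearson correlation of 0.892, a description over arrays that share their normalization. Summed B and plasma cell markers, as the log2 of the list's total signal, were also lowest in LG_eTreg, at 6.51 to 7.39 against 7.47 to 8.10 in LG_eTconv and 8.30 to 8.57 in LG_naive. Of 8 measured markers 1 was called lower in LG_eTreg against LG_eTconv and 4 of 8 against LG_naive. Pax5 was at background on all arrays. It was the only marker at background in LG_eTreg and LG_naive, and in LG_eTconv Ebf1 was too. The part of B cell RNA in the Bcl2 result was not tested.

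In effector conventional cells Bcl2 was not called against naive cells. The first probe set differed by 0.50 (interval -0.37 to 1.38, adjusted p = 0.554) and the second by -0.11 (interval -0.95 to 0.74, adjusted p = 0.927) in LG_eTconv minus LG_naive. On the first probe set the LG_eTconv and LG_naive arrays did not overlap, and the adjusted p was 0.0395 when only those 6 arrays entered the fit and 0.0337 without LG_eTreg 1.

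Bcl2l1, which encodes the survival protein BCL-XL, was about 2-fold higher in both effector subsets than in naive cells. The probe set 1420888_PM_at had 5.18, 5.05 and 5.39 in LG_eTreg, 5.0, 5.01 and 4.88 in LG_eTconv, and 4.04, 3.94 and 4.05 in LG_naive. Every effector array lay above every naive array. The difference from LG_naive was 1.20 in LG_eTreg (SE 0.11, interval 0.94 to 1.45, 2.29-fold, adjusted p = 0.000367) and 0.95 in LG_eTconv (SE 0.11, interval 0.70 to 1.21, 1.94-fold, adjusted p = 0.00105). Both were called under all 20 alternatives. LG_eTreg minus LG_eTconv was 0.24 (interval -0.01 to 0.49, adjusted p = 0.399), which does not show the effector subsets to be alike. A second probe set (1420887_PM_a_at), near background, averaged 1.55 ± 0.15 in LG_eTreg, 1.11 ± 0.12 in LG_eTconv and 1.19 ± 0.13 in LG_naive. It exceeded the limit on all 3 LG_eTreg arrays, on none of LG_eTconv and on 1 of LG_naive, and was called in no comparison. Against LG_naive, LG_eTreg thus combined a lower Bcl2 signal with a higher Bcl2l1 signal, and LG_eTconv showed the Bcl2l1 difference with Bcl2 differences that were not called.

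Mcl1, a short-lived survival protein that T cells need at all stages, differed by less than 2-fold between subset means. On 1416880_PM_at the arrays had 8.81, 9.05 and 8.92 in LG_eTreg, 8.35, 8.85 and 8.82 in LG_eTconv, and 9.0, 9.21 and 9.06 in LG_naive. The whole range over 11 arrays was 0.86. No comparison was called on this probe set: LG_eTreg minus LG_naive was -0.16 (interval -0.51 to 0.19, adjusted p = 0.678) and LG_eTconv minus LG_naive was -0.42 (interval -0.77 to -0.07, adjusted p = 0.156).

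Both other Mcl1 probe sets were lower in LG_eTconv than in LG_naive. On 1416881_PM_at, LG_eTreg had 7.46, 7.52 and 7.90, LG_eTconv had 7.03, 7.08 and 7.33, and LG_naive had 8.15, 7.76 and 8.26. LG_eTconv minus LG_naive was -0.91 (SE 0.17, 1.88-fold lower, adjusted p = 0.0136), and the call was lost without LG_eTconv 1 (adjusted p = 0.0517), LG_eTconv 2 (0.0546) or LG_naive 3 (0.0527), and without the 3 arrays that stand apart together (-0.81, adjusted p = 0.0875). On 1448503_PM_at, whose LG_eTconv arrays had 8.15, 8.27 and 8.21 against 8.59, 8.67 and 8.63 in LG_naive, the difference was -0.42 (SE 0.11, 1.34-fold lower, adjusted p = 0.048), called under 7 of 18 alternatives. The mean of the 3 probe sets differed by -0.58 (adjusted p = 0.00595). LG_eTreg lay between the other subsets on these 3 probe sets, with differences from LG_naive of -0.14 to -0.42 and from LG_eTconv of 0.26 to 0.49, none of them called.

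Bcl2l11, which encodes the death activator BIM, was lowest in effector conventional cells and intermediate in effector regulatory cells. The probe set 1435448_PM_at had 7.50, 7.91 and 7.73 in LG_eTreg, 6.55, 6.26 and 6.84 in LG_eTconv, and 8.39, 8.48 and 8.32 in LG_naive. None of the 3 groups overlapped. LG_eTconv minus LG_naive was -1.85 (SE 0.17, interval -2.23 to -1.46, 3.60-fold lower, adjusted p = 0.000288), called under all 20 alternatives. LG_eTreg minus LG_eTconv was 1.16 (interval 0.78 to 1.54, 2.24-fold higher, adjusted p = 0.00808). LG_eTreg minus LG_naive was -0.69 (interval -1.07 to -0.30, adjusted p = 0.045), and this smaller difference was called under only 8 of 20 alternatives, with adjusted p up to 0.296.

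A second Bcl2l11 probe set (1456005_PM_a_at) followed the same order. It had 6.68, 6.73 and 5.93 in LG_eTreg, 5.58, 5.91 and 5.74 in LG_eTconv, and 6.64, 7.27 and 6.92 in LG_naive. LG_eTreg 3 was the lowest of its group and close to LG_eTconv. LG_eTconv minus LG_naive was -1.20 (SE 0.24, 2.29-fold lower, adjusted p = 0.0188). That call was lost without LG_eTconv 1 (0.0681), LG_eTconv 3 (0.0607), LG_naive 2 (0.0643) or LG_naive 3 (0.0593), and with values raised to the background limit (0.0542). LG_eTreg minus LG_naive was -0.50 (interval -1.06 to 0.06, adjusted p = 0.337) and LG_eTreg minus LG_eTconv 0.70 (interval 0.13 to 1.26, adjusted p = 0.237). The probe sets 1456006_PM_at and 1435449_PM_at spread widely within groups, over 1.66 to 3.80 and 1.06 to 2.61 in LG_eTreg alone, and were called in no comparison. Averaged over the 5 Bcl2l11 probe sets, LG_eTreg minus LG_eTconv was 0.55 (adjusted p = 0.32), so the call between the effector subsets rests on 1435448_PM_at, and it was also lost without the 3 arrays that stand apart (1.15, adjusted p = 0.115).

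Markers of other cells moved in the same comparisons as Bcl2l11 and Mcl1. Of all genes, 5.4% were called higher and 4.73% lower in LG_eTreg against LG_naive, and 5.87% and 6.2% in LG_eTconv. Of 10 monocyte and macrophage markers 6 were called lower in LG_eTreg and 6 in LG_eTconv against LG_naive. Their summed level was 8.57 to 9.32 in LG_eTreg, 8.26 to 8.36 in LG_eTconv and 9.35 to 9.71 in LG_naive. Csf1r and Itgam were at background in all 3, while Tyrobp, named after its values were seen, averaged 4.31 in LG_eTreg, 4.49 in LG_eTconv and 8.07 in LG_naive. Of 8 measured dendritic cell markers 6 were called lower in each and 1, Zbtb46, was called higher in LG_eTreg (1.27, adjusted p = 0.0492). Their summed level was 8.5 to 8.94 in LG_eTreg, 8.53 to 8.83 in LG_eTconv and 10.06 to 10.62 in LG_naive. Xcr1 was at background in all 3. Flt3 exceeded the limit on all 3 LG_naive arrays and on no effector array, and Itgax averaged 2.25 in LG_eTreg, 1.41 in LG_eTconv and 4.55 in LG_naive. Zbtb46, Flt3 and Itgax were named after their values were seen. Of 8 lacrimal gland epithelium markers, 2 were called lower in LG_eTreg and 3 in LG_eTconv against LG_naive. Epcam was 0.71 higher in LG_eTreg than in LG_naive, which was not called. Their summed level was 6.96 to 7.57 in LG_eTreg, 5.94 to 5.97 in LG_eTconv and 7.43 to 8.67 in LG_naive, with LG_eTreg and LG_naive overlapping. Krt19 and Elf3 were at background in all 3. Of 8 fibroblast, endothelium and erythrocyte markers, 3 were called lower in LG_eTreg and 2 in LG_eTconv against LG_naive. Of 7 CD8 T and natural killer cell markers, 0 were called in LG_eTreg, and in LG_eTconv Cd8a was called higher (1.56, adjusted p = 0.00277) and Eomes lower. The monocyte and macrophage sums and the epithelium sums both had the order of Bcl2l11, lowest in LG_eTconv and highest in LG_naive. A sum follows its brightest genes. In LG_eTreg the brightest monocyte and macrophage marker was Cst3, at 8.36 against 7.63 in LG_eTconv, which was not called. By marker, the median LG_eTreg minus LG_eTconv was 0.1 for monocytes and macrophages, with 1 of 10 called higher, and 0.28 for epithelium, with 2 of 8. The part of these cells' RNA in the survival gene results was not tested.

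**Figure D2:**
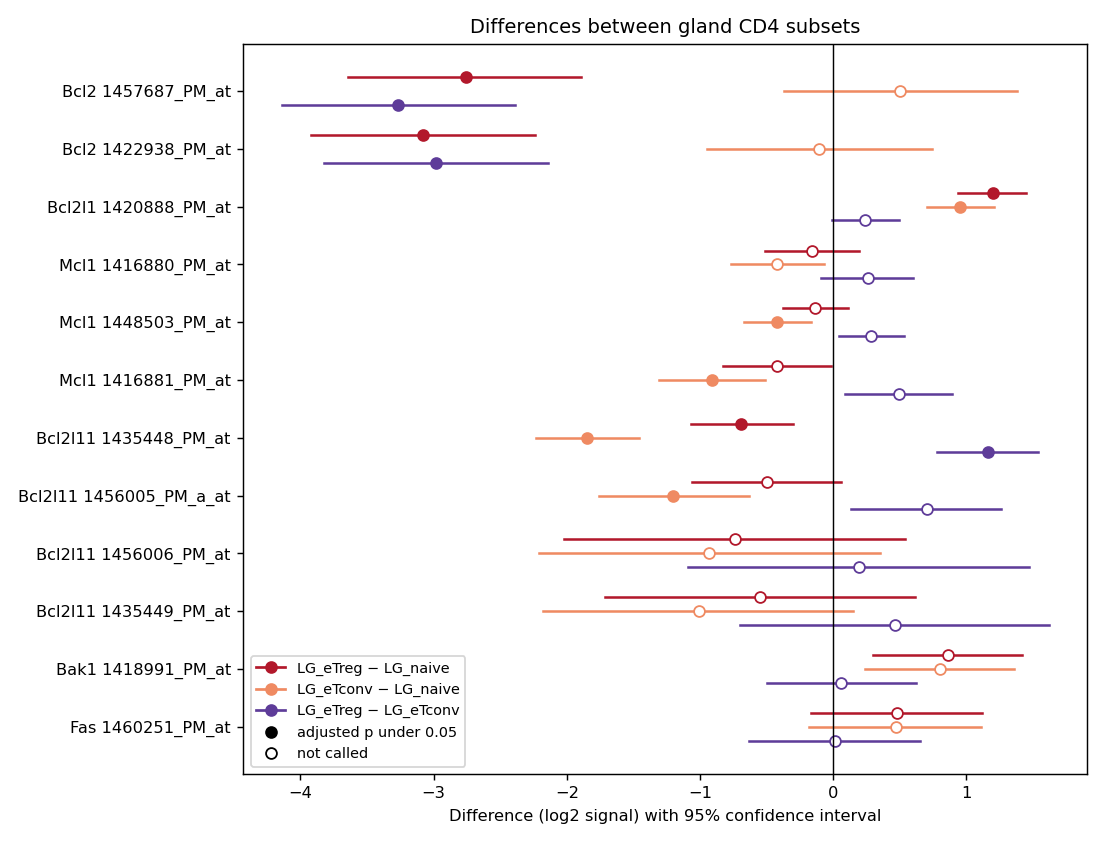
Differences in log2 signal with 95% confidence intervals (horizontal axis) for the 12 probe sets in 3 comparisons of gland subsets. Filled points have a limma adjusted p under 0.05 and open points do not. Bcl2 differences in LG_eTreg lie between -2.76 and -3.27 on both probe sets, Bcl2l1 differences from LG_naive are 1.20 in LG_eTreg and 0.95 in LG_eTconv, and Bcl2l11 1435448_PM_at differs by -0.69 in LG_eTreg and -1.85 in LG_eTconv.

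Bak1, one of the 2 pore-forming effectors, was somewhat higher on every effector array than on any naive array, but was not called. The probe set 1418991_PM_at had 4.56, 4.18 and 4.87 in LG_eTreg, 4.66, 4.18 and 4.59 in LG_eTconv, and 3.93, 3.26 and 3.84 in LG_naive. The difference from LG_naive was 0.86 in LG_eTreg (interval 0.30 to 1.42, adjusted p = 0.0781) and 0.80 in LG_eTconv (interval 0.24 to 1.36, adjusted p = 0.0887). LG_eTreg minus LG_eTconv was 0.06 (interval -0.50 to 0.62, adjusted p = 0.962).

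Fas, the death receptor, was above background on all 11 arrays and spanned 1.12 over them. It had 5.66, 6.39 and 6.62 in LG_eTreg, 5.98, 6.19 and 6.47 in LG_eTconv, and 6.16, 5.50 and 5.58 in LG_naive. All 3 groups overlapped. The difference from LG_naive was 0.48 in LG_eTreg (interval -0.17 to 1.12, adjusted p = 0.442) and 0.47 in LG_eTconv (interval -0.18 to 1.11, adjusted p = 0.43), and LG_eTreg minus LG_eTconv was 0.01 (interval -0.63 to 0.65, adjusted p = 0.995). The intervals bound any difference between the effector subsets to less than 2-fold.

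The plot of Bcl2 against Bcl2l11 sets the gene with the main effector regulatory difference beside the gene with the main effector conventional difference. Relative to the LG_naive mean, Bcl2 (1457687_PM_at) was at -1.72, -3.39 and -3.18 on the LG_eTreg arrays and at 0.64, 0.47 and 0.39 on the LG_eTconv arrays. The contrast that tests whether the change from LG_naive differed between the subsets is LG_eTreg minus LG_eTconv, given above for each gene: it was called for both Bcl2 probe sets and for Bcl2l11 1435448_PM_at, in opposite directions.

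**Figure D3:**
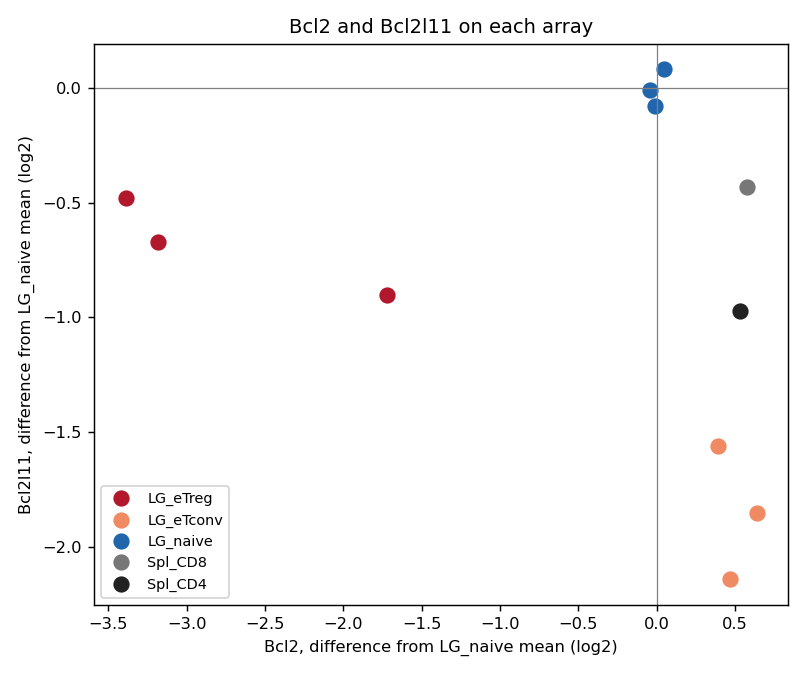
Each of the 11 arrays by its difference from the LG_naive mean in Bcl2 (1457687_PM_at, horizontal axis, log2) and in Bcl2l11 (1435448_PM_at, vertical axis, log2). The LG_eTreg arrays lie at -1.72 to -3.39 on the Bcl2 axis, the LG_eTconv arrays at 0.39 to 0.64, and the LG_naive arrays around 0, while the LG_eTconv arrays are the lowest on the Bcl2l11 axis.

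The single spleen arrays placed each gene beside unfractionated splenic T cells, without a replicate check. Their summed B and plasma cell markers, at 10.18 in Spl_CD8 and 9.44 in Spl_CD4, lay above those of every gland array. Of the 8 measured markers 1, Pax5, was at background on both, and the rest were above it. Ms4a1 had 7.58 in Spl_CD8 and 6.97 in Spl_CD4, and Cd79a had 6.80 and 6.03. The part of B cell RNA in the spleen comparisons was not tested. Probe sets were counted where a gland mean differed at least 2-fold from Spl_CD4 with all 3 gland arrays on one side. In LG_eTreg 4 of the 17 passed, where 11.5% of all probe sets did, in LG_eTconv 0 (12.1% of all) and in LG_naive 1 (8.73% of all). In LG_eTreg, Bcl2 was 9.78-fold below Spl_CD4 on 1457687_PM_at (4.29 against 7.58) and 4.27-fold below on 1422938_PM_at (1.84 against 3.93), and Bcl2l1 1420888_PM_at was 2.22-fold above (5.2 against 4.05). The fourth was Bcl2l11 1435449_PM_at, which was also the 1 that passed in LG_naive. It was below the background limit on Spl_CD4. In LG_eTreg and in LG_naive only 2 of 3 arrays exceeded their limit, so the size of its difference is uncertain. Between the single spleen arrays, Spl_CD8 differed from Spl_CD4 by more than 2-fold on 1 of the 17, Bcl2l11 1456006_PM_at (1.80 against 3.12), where 8.57% of all probe sets did.

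By group mean on the probe set with the highest gland signal, Bcl2 ran from 4.29 in LG_eTreg to 7.06 in LG_naive, 7.56 in LG_eTconv, 7.58 in Spl_CD4 and 7.64 in Spl_CD8. The step above LG_eTreg exceeded the spread between replicates, and the spleen arrays lay within the LG_eTconv range. Bcl2l1 ran from 3.77 in Spl_CD8 to 4.01 in LG_naive, 4.05 in Spl_CD4, 4.96 in LG_eTconv and 5.2 in LG_eTreg, with LG_naive and Spl_CD4 not separated. Bcl2l11 ran from 6.55 in LG_eTconv to 7.43 in Spl_CD4, 7.71 in LG_eTreg, 7.97 in Spl_CD8 and 8.40 in LG_naive, with both spleen arrays just outside the LG_eTreg range. Bak1 ran from 3.68 in LG_naive to 4.33 in Spl_CD8, 4.47 in Spl_CD4, 4.48 in LG_eTconv and 4.54 in LG_eTreg, with the upper 4 not separated. Fas ran from 5.71 in Spl_CD8 to 5.75 in LG_naive, 5.93 in Spl_CD4, 6.21 in LG_eTconv and 6.22 in LG_eTreg. Mcl1 ran from 8.67 in LG_eTconv to 8.93 in LG_eTreg, 9.09 in LG_naive, 9.13 in Spl_CD4 and 9.20 in Spl_CD8. The place of the spleen arrays for Mcl1 holds on this probe set only: on 1448503_PM_at they had 8.17 (Spl_CD8) and 8.19 (Spl_CD4), and on 1416881_PM_at 6.71 and 7.38, below the LG_naive mean on both. For Bcl2 and Bcl2l11 their place also depended on the probe set. On Bcl2 1422938_PM_at they had 4.19 (Spl_CD8) and 3.93 (Spl_CD4), below every LG_eTconv and LG_naive array. On Bcl2l11 1456005_PM_a_at they had 6.24 (Spl_CD8) and 6.31 (Spl_CD4), both within the LG_eTreg range. Steps between neighbours in these orders of Fas and Mcl1 were about the size of the replicate SD or smaller.

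The genes whose pattern over the 11 arrays was most like each survival gene were found by Pearson correlation among 4650 genes above background with group means ranging over at least 1. The arrays share groups and normalization, so these values describe likeness only. For Bcl2 they were Rexo2 (0.960), Sh2b3 (0.955) and Aff3 (0.945). Aff3 averaged 4.52 in LG_eTreg, 7.86 in LG_eTconv and 7.38 in LG_naive. For Bcl2l1 they were Il3ra (0.992), Ndfip1 (0.986) and Plpp2 (0.981). Il3ra averaged 4.68 in LG_eTreg, 4.22 in LG_eTconv and 2.86 in LG_naive. For Bcl2l11 they were Ifi204 (0.967), Tgtp1 (0.956) and Bach1 (0.945). Weaker likeness was found for Mcl1, led by Ncoa4 (0.914), Bak1, led by Mad2l1 (0.917), and Fas, led by Mpp2 (0.897).

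The wider cell death and survival pathway was read from 10 lists of 63 genes, each by the probe set with its highest gland signal. Of these, 54 had a probe set under their symbol and count as measured, some of them at or near background. In LG_eTreg against LG_naive 9 were called higher and 4 lower, where 5.4% of all genes were called higher and 4.73% lower. In LG_eTconv against LG_naive 9 were called higher and 5 lower (5.87% and 6.2% of all genes), and in LG_eTreg against LG_eTconv 3 higher and 3 lower (2.55% and 2.34%). The median differences were near those of all genes, at 0.02 (-0.02 over all genes), 0.03 (-0.03) and 0.11 (0.01) in the same order. The 5 measured genes of the death-inducing complex, the 6 of the apoptosome and caspases and the 7 transcriptional regulators of the family had 0 calls in any of the 3 comparisons by limma, and at an unadjusted p under 0.05 between 0 and 3 genes of a list passed in a comparison. Of the regulators, Foxo1 was near background, at 1.32 in LG_eTreg, 1.44 in LG_eTconv and 1.32 in LG_naive, so its lack of a call says little.

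Among the other anti-apoptotic BCL2 relatives, 1 of 4 measured was called in each effector subset. Of these 4, Bcl2l10 exceeded the limit on no gland array and Bcl2l12 on only 1 LG_eTreg array, so their lack of a call says little. Bcl2a1a, which encodes the survival protein A1, had 9.07, 9.42 and 9.22 in LG_eTreg, 9.02, 9.08 and 9.09 in LG_eTconv, and 7.34, 7.03 and 7.02 in LG_naive. The rise was 2.11 in LG_eTreg (SE 0.13, 4.32-fold, adjusted p = 5.2e-05) and 1.94 in LG_eTconv (SE 0.13, 3.83-fold, adjusted p = 5.92e-05), and LG_eTreg minus LG_eTconv was 0.17 (adjusted p = 0.684). Its probe set shares sequence with near-identical A1 copies, so the copy is uncertain. Bcl2l2, which encodes BCL-W, was not called, at 1.17 in LG_eTreg (adjusted p = 0.206) and 1.08 in LG_eTconv (adjusted p = 0.222) relative to LG_naive.

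BH3-only genes other than Bcl2l11 had 2 of 7 called higher in LG_eTreg and 1 lower in LG_eTconv against LG_naive. Bad, named after its values were seen, was not called on its highest probe set, while the other of its 2 probe sets was called higher in each. Pmaip1, which encodes NOXA, an antagonist of MCL1, had 7.89, 8.37 and 8.08 in LG_eTreg, 7.18, 7.56 and 7.58 in LG_eTconv, and 6.08, 6.83 and 6.84 in LG_naive. The difference from LG_naive was 1.53 in LG_eTreg (2.88-fold, adjusted p = 0.00549) and 0.86 in LG_eTconv (adjusted p = 0.0608), which was called under 7 of 20 alternatives. Bid, which links death receptors to mitochondria, averaged 4.82 ± 0.30 in LG_eTreg, 3.67 ± 0.29 in LG_eTconv and 3.79 ± 0.26 in LG_naive, higher in LG_eTreg against LG_naive (1.04, adjusted p = 0.0215) and against LG_eTconv (1.15, adjusted p = 0.0248), though these calls were lost under 6 and 7 of 20 alternatives. Bbc3, which encodes PUMA, was lower in LG_eTconv by a small step (-0.47, adjusted p = 0.027, lost under 9 of 20 alternatives) and Bmf was not called (-0.22 in LG_eTreg and -0.13 in LG_eTconv).

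Of 8 death ligands and receptors, 2 were higher and 3 lower in LG_eTreg, and 5 higher and 2 lower in LG_eTconv, against LG_naive. Tnfsf10, which encodes the death ligand TRAIL, rose in both, by 1.44 in LG_eTreg (adjusted p = 0.000315) and 1.88 in LG_eTconv (adjusted p = 6.72e-05). Fasl, the ligand of Fas, had 5.60, 5.59 and 5.19 in LG_eTreg, 6.73, 6.37 and 6.28 in LG_eTconv, and 5.96, 5.40 and 5.44 in LG_naive. It was higher in LG_eTconv than in LG_naive (0.86, adjusted p = 0.0338) and lower in LG_eTreg than in LG_eTconv (-1.0, adjusted p = 0.0363), calls lost under 9 and 11 of 20 alternatives, while LG_eTreg minus LG_naive was -0.14 (adjusted p = 0.814). Tnf was higher in LG_eTconv (1.22, adjusted p = 0.000644) and 0.44 higher in LG_eTreg, which was not called (adjusted p = 0.0858). LG_eTreg minus LG_eTconv was -0.78 for Tnf (adjusted p = 0.0149), a call lost under 4 of 20 alternatives.

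The TNF receptors moved in both directions. Tnfrsf1b, TNF receptor 2, which carries no death domain, rose by 2.48 in LG_eTreg (5.56-fold, adjusted p = 1.71e-05) and by 1.69 in LG_eTconv (3.22-fold, adjusted p = 8.3e-05). Averaged over its 2 probe sets the differences were 1.32 in LG_eTreg and 0.87 in LG_eTconv. Tnfrsf1a, the death domain TNF receptor, was lower in both, at -1.11 in LG_eTreg (adjusted p = 0.00405) and -1.38 in LG_eTconv (adjusted p = 0.00107). Tnfrsf25, death receptor 3, had 4.66, 3.82 and 4.09 in LG_eTreg, 6.77, 6.27 and 6.56 in LG_eTconv, and 5.48, 5.47 and 5.57 in LG_naive. It was lower in LG_eTreg (-1.32, adjusted p = 0.00757, lost only without the 3 arrays that stand apart, at 0.0794) and higher in LG_eTconv (1.02, adjusted p = 0.0214), and the difference between the subsets was -2.34 (adjusted p = 0.000809). Tnfrsf10b, the TRAIL receptor, was called lower in both from signals near background. It was above the limit on 1 of 3 LG_eTreg arrays, 0 of 3 LG_eTconv arrays and 2 of 3 LG_naive arrays. The adjusted p was 0.0352 in LG_eTreg (lost under 10 of 20 alternatives) and 0.0128 in LG_eTconv (lost under 2 of 20). With values raised to the background limit neither was called, at -0.92 in LG_eTreg (adjusted p = 0.355) and -0.92 in LG_eTconv (adjusted p = 0.325).

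Caspase inhibitors had 2 of 5 called higher in LG_eTreg and 1 in LG_eTconv. Birc5, which encodes survivin and is also a mitotic gene, had 4.97, 4.86 and 5.55 in LG_eTreg, 3.59, 4.46 and 4.41 in LG_eTconv, and 1.96, 0.92 and 0.53 in LG_naive, where 1 of 3 arrays exceeded its limit. The difference from LG_naive was 3.99 in LG_eTreg (adjusted p = 0.000576) and 3.02 in LG_eTconv (adjusted p = 0.00212). With values raised to the background limit it was 3.34 in LG_eTreg and 2.37 in LG_eTconv, and it was called under all 20 alternatives in both. Xiap was higher in LG_eTreg by 0.51 (adjusted p = 0.0408), a call lost under 13 of 20 alternatives. Cflar, the inhibitor of caspase 8 recruitment, was not called on its highest probe set (0.12 in LG_eTreg and -0.02 in LG_eTconv), while another of its 5 probe sets was called higher in each.

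Survival cytokine receptors had 2 of 6 measured called higher and 1 lower in LG_eTreg, and 1 higher and 2 lower in LG_eTconv. Il2rb, the shared interleukin 2 and 15 receptor chain, rose by 3.20 in LG_eTreg (adjusted p = 1.52e-05) and by 2.64 in LG_eTconv (adjusted p = 2.67e-05). Il2ra, the high-affinity chain, averaged 7.15 ± 0.13 in LG_eTreg, 5.12 ± 0.22 in LG_eTconv and 4.58 ± 0.22 in LG_naive. It was higher in LG_eTreg than in LG_eTconv by 2.03 (adjusted p = 0.000298), the comparison in which Bcl2 was lower. A relation between Il2ra and Bcl2 was not tested. Il6ra was lower in LG_eTreg (-1.58, adjusted p = 0.00884), a call lost only without the 3 arrays that stand apart (adjusted p = 0.0954). Il21r was lower in LG_eTconv (-0.72, adjusted p = 0.0492), a call lost under 15 of 20 alternatives. Il4ra was called lower in LG_eTconv (adjusted p = 0.0173, lost under 6 of 20 alternatives), where only 1 of 3 arrays exceeded its limit, and with values raised to the limit the difference was -0.44 and not called (adjusted p = 0.0916). Of the MCL1 and BIM turnover genes, Btrc was higher in LG_eTconv (0.76, adjusted p = 0.0184, lost under 6 of 20 alternatives) and the other 4 were not called in any comparison on the probe set used, while another of the 3 probe sets of Dynll1, a gene named after its values were seen, was called lower in LG_eTconv against LG_naive.

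**Figure D4:**
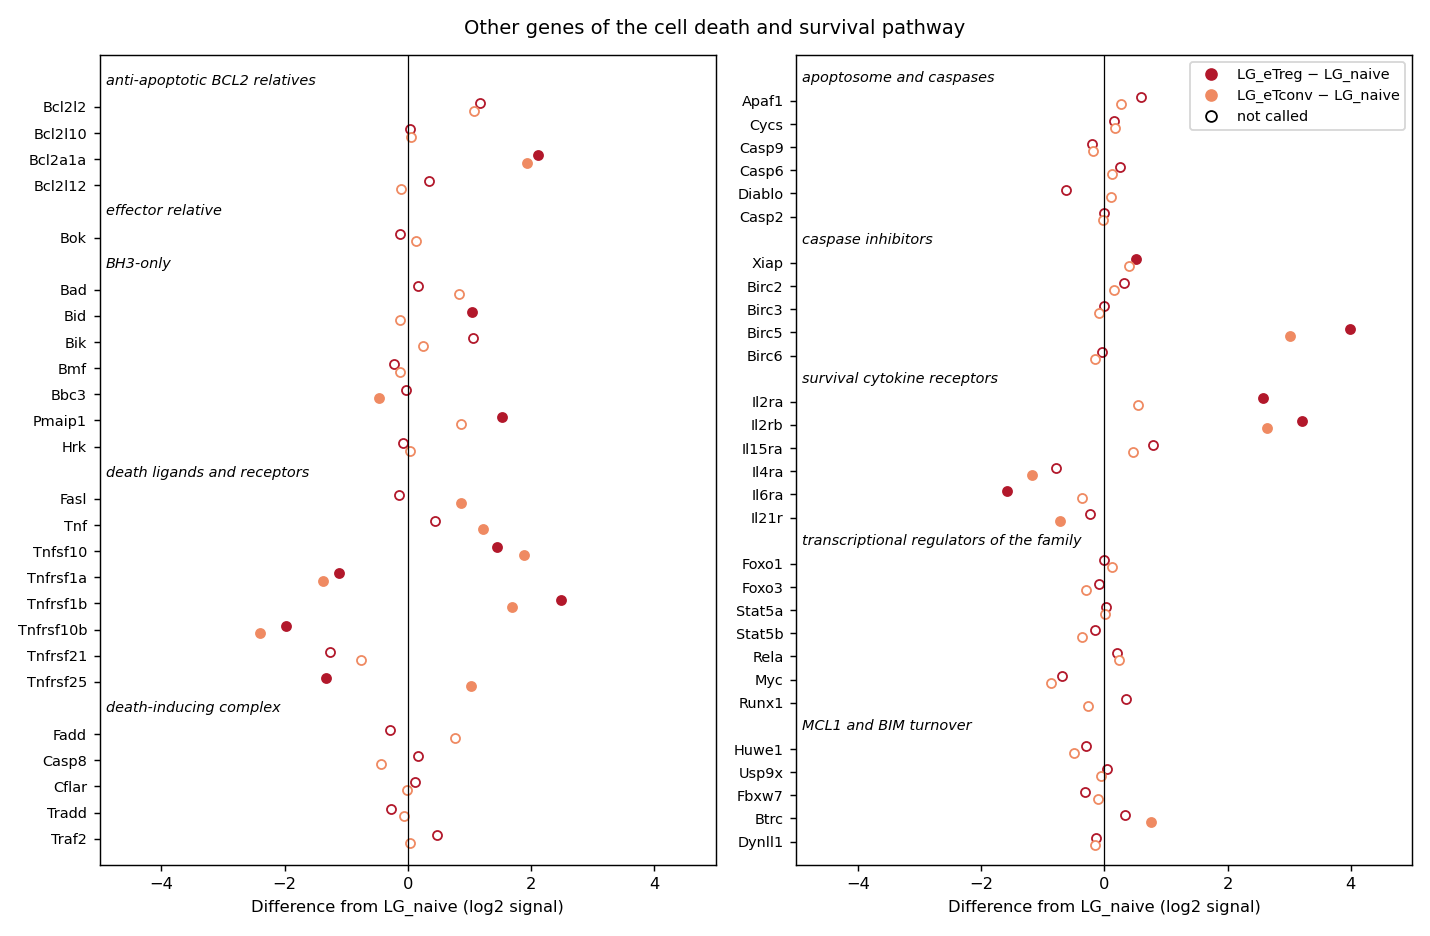
Differences from LG_naive in log2 signal (horizontal axis) of 54 measured genes of the cell death and survival pathway, grouped by role, in LG_eTreg and LG_eTconv. Filled points have a limma adjusted p under 0.05 and open points do not. Bcl2a1a, Tnfrsf1b, Birc5 and Il2rb lie to the right in both subsets, Tnfrsf1a to the left in both, and Tnfrsf25 on opposite sides.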

How the data were processed

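RNA of 11 sorted T cell samples was measured on Affymetrix-style perfect-match probe set arrays. Per the submitters' processing notes the authors used RMA and Partek, and the deposited tables hold 1 normalized log2 value per probe set and array. Software versions are not given in the sources used here. Log base 2 is inferred from RMA. After 104 control probe sets were left out, 45037 were tested, of which 28898 had 1 gene symbol, 551 several and 15588 no gene listed. All 7 genes with every probe set were named, and of the pathway lists up to 4 called genes a comparison plus fixed genes. The genes and lists were chosen with earlier results of these data known. Differences were tested with limma 3.58.1 (R 4.3.3) on group means of the 9 gland arrays with empirical Bayes moderation, two-sided, Benjamini-Hochberg adjusted over all probe sets, and called at 0.05. The test was run on simulated data. Alternatives changed the features tested, the filter, normalization, floor, samples, variance prior, array weights and replicate block, and left out arrays. Spleen arrays have no test. Levels are compared within a probe set only. Pathway and marker genes without a probe set listed under their symbol are not reported here.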

Additional observations from a re-analysis of the deposited data

Results flagged for a closer look

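The change from LG_naive differed between the effector subsets for 3 probe sets, tested by the LG_eTreg minus LG_eTconv contrast in limma. For Bcl2 the contrast was -3.27 on 1457687_PM_at (adjusted p = 0.00285), where the difference from LG_naive was -2.76 in LG_eTreg and 0.50 in LG_eTconv. It was -2.98 on 1422938_PM_at (adjusted p = 0.00372), from -3.08 in LG_eTreg and -0.11 in LG_eTconv. For Bcl2l11 1435448_PM_at it was 1.16 (adjusted p = 0.00808), from -0.69 in LG_eTreg and -1.85 in LG_eTconv. Each contrast had the same direction in 3 of 3 arrays against every array of the other subset. Groups of 3 arrays were too small for a test of single outlying arrays.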

How the results depend on the processing

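All alternatives run kept the direction of every called difference of the survival genes. Testing 1 probe set a gene called 1995, 2303 and 974 genes of 17097 in LG_eTreg against LG_naive, LG_eTconv against LG_naive and LG_eTreg against LG_eTconv, and averaging probe sets called 2078, 2372 and 1023, where 3424, 4103 and 1557 probe sets were called in the main analysis; fewer features were tested there. In LG_eTreg against LG_eTconv a background floor gave 1023, leaving out LG_naive 1, LG_eTconv 1 and LG_eTreg 3 together 913, and leaving out single arrays 965 to 1549. Of the 17 survival probe sets, 5 were called in LG_eTconv against LG_naive, and 2 to 5 without single arrays (2 without LG_eTconv 1 or LG_naive 3). With 1 probe set a gene 2 of 6 were called, and with averaging 3 of 6. In LG_eTreg against LG_naive, 2 of 6 were called with averaging and 2 of 17 without the 3 arrays together. In LG_eTreg against LG_eTconv these were 1 of 6 and 1 of 17. Leaving out arrays leaves fewer samples, and testing by gene leaves fewer features to call. Otherwise the cause was not tested.

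Uncalled differences near 0 changed sign. LG_eTconv minus LG_naive on Bcl2 1422938_PM_at was 0.04 with array weights, 0.28 without the 3 arrays and -0.41 to 0.30 without single arrays. LG_eTreg minus LG_eTconv was -0.31 to 0.76 on Bcl2l11 1456006_PM_at and -0.11 to 0.24 for Bak1 without single arrays, and -0.01 for Bak1 without the 3 arrays. For Fas it was -0.05 with quantile normalization, -0.09 with array weights, -0.19 to 0.29 without single arrays and -0.30 without the 3. LG_eTconv minus LG_naive was 0.05 for Bmf with averaging and -0.30 to 0.08 without single arrays, and for Cflar 0.38 with averaging, 0.01 with quantile normalization, 0.08 with array weights, -0.13 to 0.19 without single arrays and 0.17 without the 3. LG_eTreg minus LG_naive for Fasl was 0.03 with averaging, -0.24 to 0.04 without single arrays and 0.18 without the 3 arrays.

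Equal replicate numbers were not taken to pair the arrays: deviations of same-numbered arrays correlated at -0.128 to 0.197. Between LG_eTreg and LG_eTconv every array correlated best with its own number (0.197, 0.0601 and 0.144, against -0.203 to 0.0278 for other numbers), a hint from the data and not from the design, but not so against LG_naive. With the replicate block 3246, 3918 and 1327 probe sets were called; Bak1 was called in LG_eTreg (adjusted p = 0.0103) and LG_eTconv (0.0116), and the calls of Bcl2l11 1435448_PM_at in LG_eTreg (0.0893) and Mcl1 1448503_PM_at in LG_eTconv (0.0607) were lost. Signals near the background limit, as for 4 of the 17 probe sets, cannot show a difference.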
